A study of Mus musculus with 12 samples.

Results

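The 10 genes described here encode the subunits of the transcription factor NF-κB, its IκB proteins and enzymes that regulate its activation. They were picked by symbol as a family, with no threshold on a measured value, although earlier results of these data were known, and each was found once among the 24197 genes of the table. The 5 subunit genes are NFKB1, NFKB2, REL, RELA and RELB, the 3 IκB genes are NFKBIA, NFKBIE and NFKBIZ, and the remaining pair, TNFAIP3 and BIRC3, encode ubiquitin-modifying enzymes. RNA was sequenced from E0771 cells, a mouse mammary carcinoma line, in 4 groups of 3 libraries each. One group received 4HC (4-hydroperoxycyclophosphamide, a chemically activated form of cyclophosphamide) at 4.2 µM for 4 h together with an antibody against IFNAR1, a chain of the type I interferon receptor, at 10 µg/mL. That antibody was present again during the 68 h in fresh medium, and the cells were collected at 72 h. The 4HC group received 4HC alone on the same schedule. IFNβ cells were exposed for 4 h to the recombinant cytokine, at 27.8 U/mL. Collection of the IFNβ cells came 2 h after the end of exposure by the sample labels, the header of the table and the study's methods, and only the protocol text in the labels gives 68 h. The IFNβ cells were therefore taken as an earlier time than the 4HC cells. Control cells, called vehicle control in the labels and untreated in the table, were collected at 72 h, so IFNβ and control cells are not matched in time either. No group received a control antibody or the antibody without 4HC, so blocking of the receptor and presence of an antibody cannot be told apart. All groups are the same established tumor cell line in culture. The study's methods describe the libraries of a condition as separate cultures.

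NF-κB is a family of dimers assembled from the 5 subunits, of which RELA, RELB and REL carry a transactivation domain, while NFKB1 and NFKB2 encode precursors that are processed to shorter DNA-binding subunits. In resting cells IκB proteins keep the dimers in the cytoplasm, and signals from cytokine receptors or pattern recognition receptors activate IκB kinases that mark the IκB proteins for destruction. Several inhibitors are themselves transcribed in response to NF-κB, which closes a negative feedback loop. The pathway is known for its response to TNF, interleukin 1 and microbial products, and also to DNA damage.

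Expression values are the authors' group means in FPKM, a fragment count normalized to transcript length and library size, so the spread between libraries is not known from them and no test was run on any difference below. Each fold is the ratio of group means after adding 0.1 FPKM to both, and a gene was counted as higher or lower when its fold passed 2. The comparison set holds the 10765 genes whose mean over the 4 groups was above 0.5 FPKM, and all 10 NF-κB genes are in it. The number of genes listed at 0 was 6408 with 4HC and antibody, 6339 with 4HC, 8516 with IFNβ and 8327 in control cells. Of 8 epithelial markers only KRT8 was above 0.5 FPKM in any group, EPCAM and CDH1 being below it. Of 8 mesenchymal and fibroblast markers 5 were above it in some group, while FN1, CDH2 and DCN were not. The mesenchymal marker VIM was at 849, 752, 835 and 785 FPKM in 4HC with antibody, 4HC, IFNβ and control cells. The 9 leukocyte markers summed to 3.12, 2.32, 1.78 and 1.56 FPKM in the same order, most of it LYZ2, and CD3E and NCR1 were listed at 0 in every group. All comparisons with control share the same control libraries, and the 4HC libraries enter both 4HC comparisons, so counts from different comparisons are not independent of each other. A mean over many cells also cannot tell a larger amount of RNA in every cell from a larger share of responding cells.

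Of the 5 subunit genes 1 lay more than 2-fold above control in 4HC cells, and of the 5 IκB and enzyme genes 4 did. All 10 genes had a higher mean in 4HC cells than in control cells, and 5 of them passed 2-fold (NFKBIE, TNFAIP3, BIRC3, RELB and NFKBIA), against 4.24% of all genes in the comparison set. None was lower past 2-fold, against 0.362% of all genes. Without 4HC, BIRC3 (0.412 FPKM in control and 0.576 FPKM in IFNβ cells) and TNFAIP3 (0.501 and 0.498 FPKM) lay near the 0.5 FPKM limit. They are in the set through the 4HC groups, so the count past 2-fold is a description. The median log2 fold of the 10 genes was 1.27, against -0.02 for all genes, of which 52.4% had a log2 fold below 0. NFKB2, at 1.98-fold, lay just under the threshold, and NFKBIA, at 2.92-fold, was the lowest gene past it. The plot of folds shows the 10 genes ordered by this comparison.

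**Figure D1:**
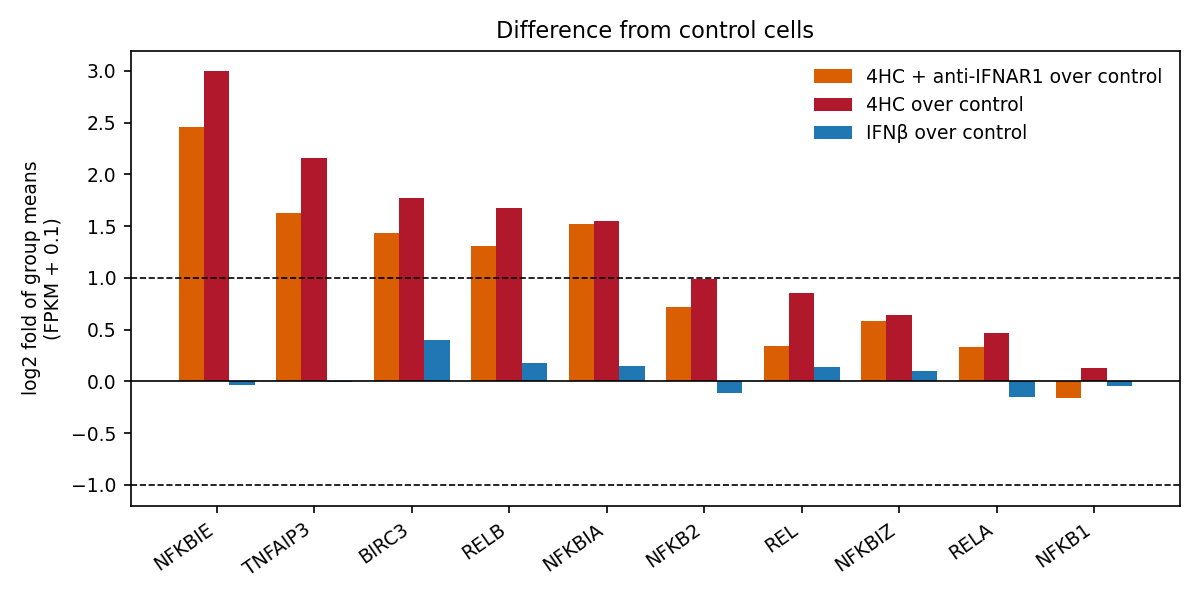
Log2 fold of group means over control (FPKM + 0.1) for each of the 10 NF-κB genes in 4HC with anti-IFNAR1, 4HC and IFNβ cells. Dashed lines mark 2-fold; each bar is a ratio of 2 deposited means, so no error bar can be drawn. The 4HC bars reach 3.00 for NFKBIE, and no IFNβ bar exceeds 0.40.

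The IκB genes differed among themselves. NFKBIA (chr12:56590395-56593634, mm9) encodes IκBα, the inhibitor that is degraded and resynthesized most rapidly after NF-κB activation. Its means were 46.8 FPKM in 4HC with antibody, 47.5 FPKM in 4HC, 18.0 FPKM in IFNβ and 16.2 FPKM in control cells. The 2 groups given 4HC lay well above the other 2, with a fold of 2.92 for 4HC over control, and NFKBIA was the most abundant of the 10 transcripts in both. In IFNβ and control cells that place was taken by RELA.

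NFKBIE (chr17:45692648-45700117, mm9) encodes IκBε, a related cytoplasmic inhibitor. It was at 3.66, 5.35, 0.569 and 0.583 FPKM in 4HC with antibody, 4HC, IFNβ and control cells. Its 7.98-fold difference between 4HC and control was the largest among the 10 genes and was as large as or larger than that of 99.2% of the comparison set. With 1 FPKM added instead of 0.1, its log2 fold was 2.00 instead of 3.00. NFKBIA was nonetheless 8.87 times as abundant as NFKBIE in 4HC cells, against 27.8 times in control cells. NFKBIZ (chr16:55811489-55838754, mm9), which encodes the nuclear protein IκBζ that acts on a subset of NF-κB targets, was at 4.34, 4.53, 3.07 and 2.87 FPKM. At 1.56-fold for 4HC over control it did not reach the threshold.

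The genes of both ubiquitin-modifying enzymes were low in control cells. TNFAIP3 (chr10:18720716-18735216, mm9) encodes A20, which edits ubiquitin chains on receptor-associated proteins and shuts off TNF signaling. Its means were 1.76 FPKM in 4HC with antibody, 2.59 FPKM in 4HC, 0.498 FPKM in IFNβ and 0.501 FPKM in control cells. The fold for 4HC over control was 4.48, second to NFKBIE. BIRC3 (chr9:7848700-7873170, mm9), encoding the ubiquitin ligase cIAP2 of the TNF receptor complex, was at 1.29, 1.65, 0.576 and 0.412 FPKM, and its fold for 4HC over control was 3.41. These levels are low, so the pseudocount weighs on both genes. With 1 FPKM added, the log2 fold for 4HC over control was 1.26 for TNFAIP3 and 0.91 for BIRC3, which no longer passed 2-fold.

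Promoter sequence was examined because the feedback genes are classic NF-κB targets. RefSeq promoters of build GRCm38.p6, each covering 250 bases before and 50 bases after an annotated start, were found for 7 of the 10 genes, with 10 start sites in all. No entry was matched for NFKBIZ, NFKB1 and RELB. The 4 shown are of the genes past 2-fold with 4HC that had an entry, and for TNFAIP3 the start site that holds a match. Capitals mark matches on either strand to the 10-base κB consensus, overlapping matches included. NFKBIA is at chr12:55492598-55492897 on the minus strand, NFKBIE at chr17:45555450-45555749 on the plus strand, TNFAIP3 at chr10:19015361-19015660 on the minus strand and BIRC3 at chr9:7873121-7873420 on the minus strand.
NFKBIA: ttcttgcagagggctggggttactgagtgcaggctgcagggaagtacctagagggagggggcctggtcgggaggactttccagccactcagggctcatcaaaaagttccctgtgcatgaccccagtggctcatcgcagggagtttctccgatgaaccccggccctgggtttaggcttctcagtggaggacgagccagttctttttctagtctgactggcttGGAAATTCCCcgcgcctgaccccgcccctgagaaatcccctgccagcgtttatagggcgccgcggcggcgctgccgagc
NFKBIE: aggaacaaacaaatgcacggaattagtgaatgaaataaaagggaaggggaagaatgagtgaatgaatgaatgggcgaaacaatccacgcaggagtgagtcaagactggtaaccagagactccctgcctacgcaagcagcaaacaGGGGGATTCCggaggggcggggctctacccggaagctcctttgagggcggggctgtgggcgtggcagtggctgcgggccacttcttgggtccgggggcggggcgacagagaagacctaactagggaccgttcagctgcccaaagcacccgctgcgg
TNFAIP3: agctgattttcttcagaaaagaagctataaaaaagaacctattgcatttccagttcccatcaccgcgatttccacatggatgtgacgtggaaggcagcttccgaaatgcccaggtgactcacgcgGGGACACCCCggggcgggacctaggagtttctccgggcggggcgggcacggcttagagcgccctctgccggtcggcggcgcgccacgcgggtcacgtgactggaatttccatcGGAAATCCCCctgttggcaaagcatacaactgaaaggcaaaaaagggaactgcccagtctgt
BIRC3: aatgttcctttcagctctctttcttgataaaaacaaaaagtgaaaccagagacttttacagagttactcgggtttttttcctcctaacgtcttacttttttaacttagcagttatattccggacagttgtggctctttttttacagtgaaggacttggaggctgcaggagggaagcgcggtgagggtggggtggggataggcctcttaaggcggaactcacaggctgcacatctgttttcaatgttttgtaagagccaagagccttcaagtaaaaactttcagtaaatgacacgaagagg

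The consensus was matched in at least 1 promoter of 5 of the 7 genes (NFKBIA, NFKBIE, NFKB2, REL and TNFAIP3). Counted by promoter it was matched in 7 of 10, whereas 8.46% of all 32851 promoters of the same length hold a match. The feedback genes are classic NF-κB targets, so this contrast is a description. In NFKBIA the match GGAAATTCCC lay 29 to 20 bases before the start, and in NFKBIE the match GGGGGATTCC lay 106 to 97 bases before it. TNFAIP3 had GGGACACCCC starting 125 bases before its second start site and GGAAATCCCC starting 12 bases before it, and its first start site had none. NFKB2 has 3 annotated start sites with 3, 2 and 1 matches, and the promoters of the last pair overlap and share GGGACTTTCC. REL had a pair of overlapping matches, of which GGGAAATCCC started 92 bases before the start. No match was found in the windows of RELA and BIRC3. The core of the interferon-stimulated response element, GAAANNGAA searched on both strands, was found in NFKBIA alone, 53 to 45 bases before the start, and is in 8.56% of all promoters.

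Among the subunits RELB stood apart. RELB (chr7:20191570-20214787, mm9), the partner of the processed NFKB2 product in the non-canonical pathway, was at 8.90 FPKM in 4HC with antibody, 11.6 FPKM in 4HC, 4.01 FPKM in IFNβ and 3.54 FPKM in control cells. It was the only subunit past 2-fold with 4HC, at 3.20-fold. NFKB2 (chr19:46379226-46386580, mm9) was at 16.9, 20.3, 9.40 and 10.2 FPKM, and at 1.98-fold for 4HC over control it crossed the threshold (log2 fold 1.03) when the groups were rescaled to one FPKM total. REL (chr11:23641728-23670970, mm9), the subunit best known from lymphocytes, was at 0.681, 1.02, 0.578 and 0.516 FPKM with a fold of 1.81 for 4HC over control, and was the least abundant subunit in every group.

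The subunits of the classical dimer differed less. RELA (chr19:5637489-5648130, mm9), which carries most transactivation by that dimer, was at 27.7, 30.4, 19.8 and 22.0 FPKM in 4HC with antibody, 4HC, IFNβ and control cells, a fold of 1.38 for 4HC over control. NFKB1 (chr3:135247618-135354511, mm9), its usual partner, was at 9.51, 11.7, 10.4 and 10.7 FPKM, and its 1.09-fold for 4HC over control was the smallest of the 10. The summed level of the 5 subunits was 63.6 FPKM in 4HC with antibody, 74.9 FPKM in 4HC, 44.1 FPKM in IFNβ and 46.9 FPKM in control cells. RELB made up 15.4% of that sum in 4HC cells and 7.56% in control cells, while NFKB1 made up 15.6% in 4HC cells and 22.7% in control cells. The ratio of NFKBIA plus NFKBIE to the 5 subunits was 0.705 in 4HC cells, against 0.358 in control cells, so the transcripts of the 2 inhibitors were higher relative to those of their partners.

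**Figure D2:**
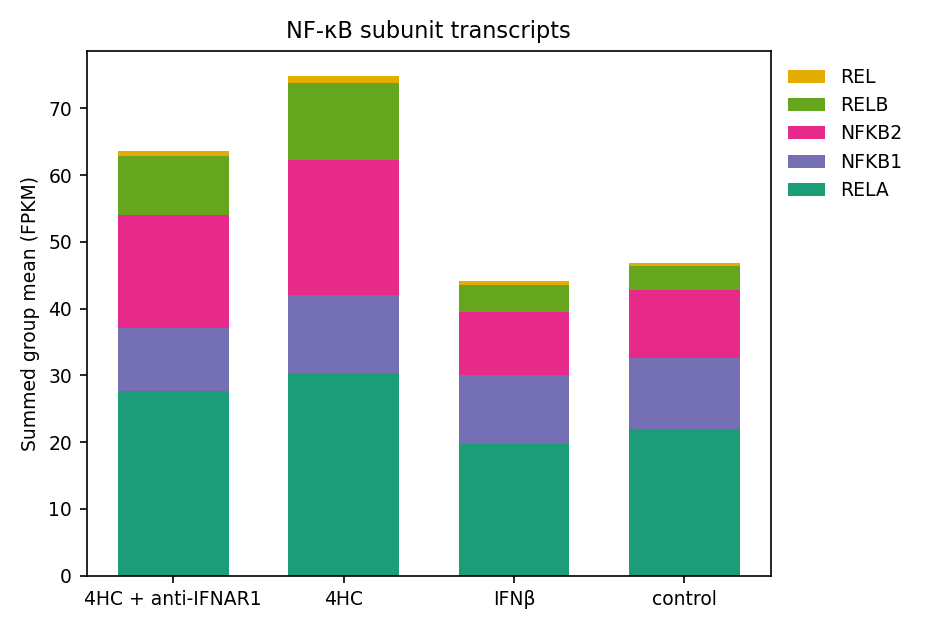
Group means of the 5 NF-κB subunit transcripts stacked in FPKM for 4HC with anti-IFNAR1, 4HC, IFNβ and control cells, as deposited means without error bars. The sums are 63.6, 74.9, 44.1 and 46.9 FPKM from left to right, and the RELB band is widest in 4HC cells at 11.6 FPKM.

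Across levels the 10 genes spanned a wide range, as the plot of levels by group shows. In control cells the order from high to low was RELA, NFKBIA, NFKB1, NFKB2, RELB, NFKBIZ, NFKBIE, REL, TNFAIP3 and BIRC3. In 4HC cells it was NFKBIA, RELA, NFKB2, NFKB1, RELB, NFKBIE, NFKBIZ, TNFAIP3, BIRC3 and REL. Without values per library it cannot be said which neighbors in either order differ beyond their spread, and NFKB1 and NFKB2 in control cells, at 10.7 and 10.2 FPKM, or NFKB1 and RELB in 4HC cells, at 11.7 and 11.6 FPKM, are nearly equal.

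**Figure D3:**
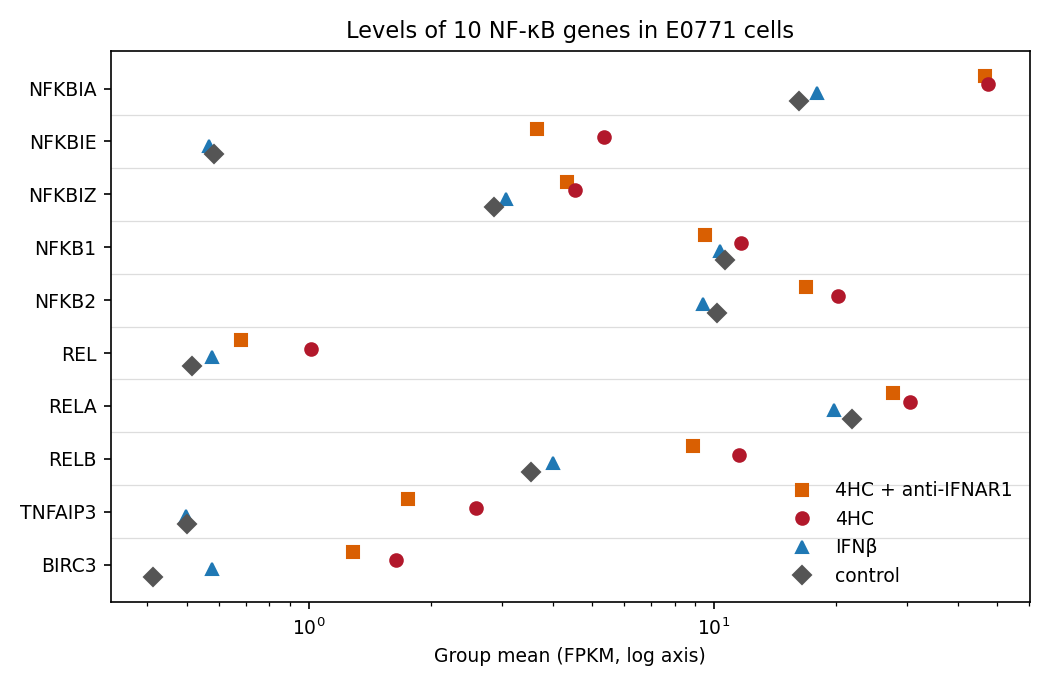
Group mean of each of the 10 genes in FPKM on a log axis, with 1 point per group and no error bar because the values are group means. For NFKBIE, TNFAIP3, RELB, BIRC3 and NFKBIA both 4HC groups lie to the right of the IFNβ and control points, whereas the 4 points of NFKB1 lie between 9.51 and 11.7 FPKM.

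The antibody comparison asks how much of the 4HC difference was left when anti-IFNAR1 was added. Lacking a control antibody, it cannot tell blocking of the receptor from presence of an antibody. In 4HC with antibody the same direction was seen over control for 9 of the 10 genes, whereas 51.1% of all genes had a log2 fold above 0. Past 2-fold 5 of the 10 were higher, against 3.72% of all genes. BIRC3 and TNFAIP3 are in the set through the 4HC groups, so this count too is a description. The folds over control were 5.50 for NFKBIE, 3.09 for TNFAIP3, 2.88 for NFKBIA, 2.71 for BIRC3 and 2.47 for RELB. No gene of the 10 was lower past 2-fold, against 0.362% of all genes, and only NFKB1 was below control, at 0.894-fold. With 1 FPKM added instead of 0.1, 3 of the 10 passed 2-fold, and TNFAIP3 and BIRC3 had log2 folds of 0.88 and 0.69.

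Set directly against 4HC alone, all 10 genes had a lower mean with the antibody, with a median log2 fold of -0.31, against -0.01 for all genes, of which 51.1% had a log2 fold below 0. None passed 2-fold in this direction, against 1.41% of all genes, and none was higher past 2-fold, against 0.279%. The log2 folds were -0.54 for NFKBIE, -0.54 for TNFAIP3, -0.51 for REL and -0.37 for RELB, while NFKBIA was at -0.02. Rescaling to one FPKM total moves the median of expressed genes by -0.14 on the log2 scale in this comparison and puts NFKBIA at -0.16 and RELB at -0.51, whereas centering on expressed genes leaves them at -0.02 and -0.37.

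For the 5 genes past 2-fold with 4HC, the share of the 4HC difference that was left with antibody was the difference between 4HC with antibody and control divided by that between 4HC and control. It was 97.8% for NFKBIA, 70.9% for BIRC3, 66.9% for RELB, 64.5% for NFKBIE and 60.1% for TNFAIP3. The median of the 5 was 66.9%. For genes short of 2-fold the share was 88.2% for NFKBIZ, 67.4% for RELA, 66.3% for NFKB2, 33.2% for REL and -113% for NFKB1. The REL and NFKB1 shares divide by small differences between 4HC and control and are uncertain. In 4HC and control cells REL was at 1.02 and 0.516 FPKM and NFKB1 at 11.7 and 10.7 FPKM. In 24 type I interferon-stimulated genes, all past 2-fold with 4HC, the median was 6.43% with a range of -27.3 to 34.0%. None of these reached the lowest of the 5 NF-κB genes past 2-fold, whereas REL and NFKB1 lay below the highest interferon-stimulated gene. The 24 genes were chosen as interferon-stimulated with earlier results of these data known, so the contrast is a description. Over all 456 genes higher past 2-fold with 4HC the median was 71.6%, with quartiles of 20.4 and 98.8%, and 63.2% of them kept more than 50% of the difference. NFKBIA lay close to the upper quartile and the other 4 of the 5 genes past 2-fold between the lower quartile and the median. The leukocyte marker sum was also higher in 4HC with antibody (3.12 FPKM) than in 4HC alone (2.32 FPKM), and both sums lay above the control sum of 1.56 FPKM. The part of these markers in the values of the NF-κB genes was not tested.

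**Figure D4:**
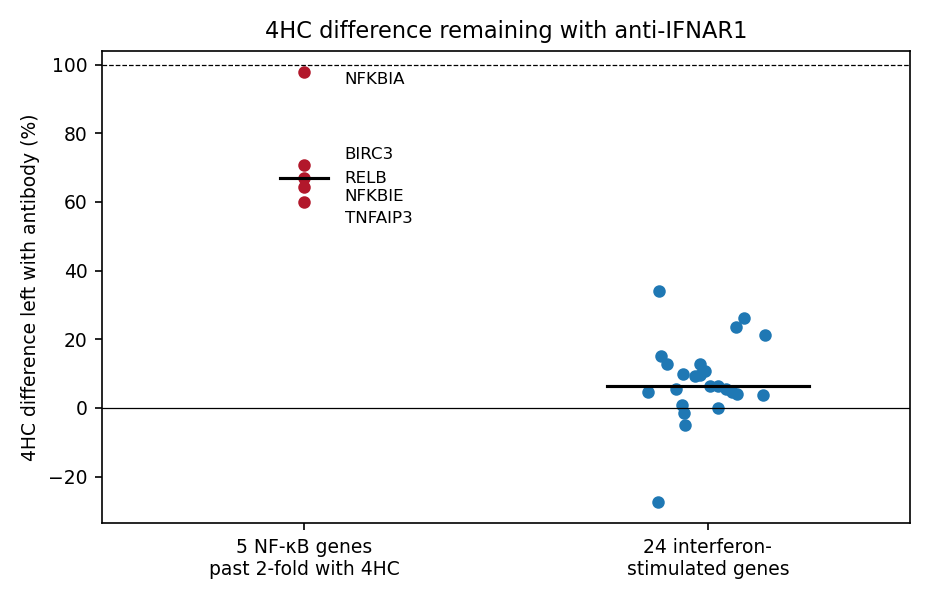
Percent of the difference between 4HC and control that was left with anti-IFNAR1 antibody, 1 point per gene, for the 5 NF-κB genes and 24 interferon-stimulated genes past 2-fold with 4HC. Black lines are medians over genes, 66.9% and 6.43%, and the dashed line is the full 4HC difference. The lowest of the 5 NF-κB genes shown, TNFAIP3 at 60.1%, lies above the highest interferon-stimulated gene at 34.0%. NF-κB genes short of 2-fold are not shown.

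In IFNβ cells the 10 genes were close to control. None was higher past 2-fold, against 1.97% of all genes, and none was lower past 2-fold, against 0.242%. Their median log2 fold was 0.05, against -0.03 for all genes. Of the 10 genes 5 were above control, and 43.0% of all genes had a log2 fold above 0. BIRC3 had the largest fold, 1.32, at 0.576 FPKM in IFNβ and 0.412 FPKM in control cells, and RELA the smallest, 0.901. NFKBIE and TNFAIP3, the genes with the largest folds in 4HC, were at 0.979-fold and 0.995-fold with IFNβ. The 24 interferon-stimulated genes in the same cells were all higher past 2-fold, with a median log2 fold of 4.90. Because the collection times differ by the labels, the IFNβ and 4HC values stand side by side and are not a comparison at a matched time. The same holds for IFNβ over control, since the control cells were collected at 72 h. The study's methods also describe denser seeding for IFNβ treatment than for drug treatment. Effects of IFNβ, time and density cannot be told apart in these folds.

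**Figure D5:**
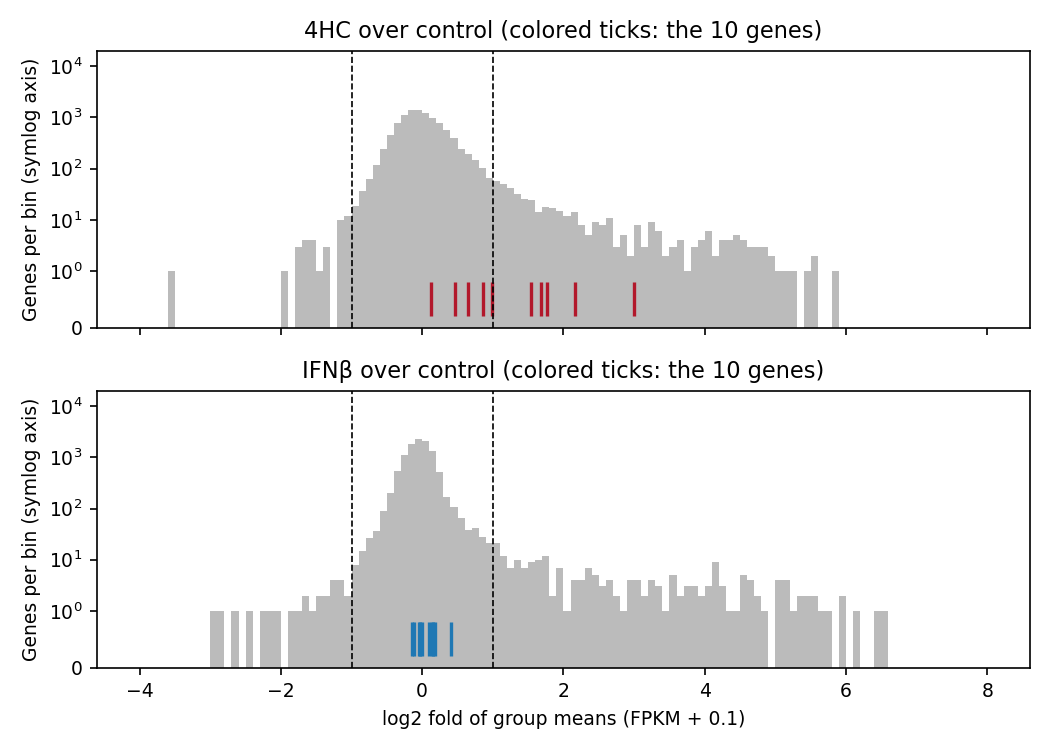
Number of genes per 0.1-wide bin of log2 fold (FPKM + 0.1) on a symlog axis for the 10765 genes, for 4HC over control (top) and IFNβ over control (bottom), with colored ticks at the 10 NF-κB genes and dashed lines at 2-fold. The 4HC ticks run from 0.13 to 3.00 and the IFNβ ticks from -0.15 to 0.40.

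Other genes of the pathway showed where the 4HC difference was found around the 10. Of 12 ligands that activate NF-κB, 3 were in the comparison set, and 2 of these, TNF and IL18, were higher past 2-fold with 4HC. Both were below 0.5 FPKM in control cells and reached the set through other groups, so this count is not a result about the ligands. TNF, the prototype activator, was at 1.26 FPKM in 4HC with antibody, 1.503 FPKM in 4HC, 0.138 FPKM in IFNβ and 0.134 FPKM in control cells, a fold of 6.85 for 4HC over control. IL18, a cytokine of the interleukin 1 family, was at 0.333, 0.891, 0.863 and 0.193 FPKM, so its mean with antibody was nearer to control. TNFSF12 was at 2.41, 2.06, 1.97 and 2.65 FPKM. Of 11 receptors in the comparison set 3 were higher past 2-fold with 4HC, against 4.24% of all genes. TLR2, a receptor for bacterial lipoproteins, was at 6.12-fold, CD40, a TNF receptor family member, at 4.32-fold, and TLR3 was the remaining one. In control cells TLR2 was at 0.163 FPKM and TLR3 at 0.256 FPKM, and both reached the set through other groups. The receptor count is therefore not a result about the receptors. TNFRSF1A, the main TNF receptor, was at 26.1, 28.9, 33.0 and 33.1 FPKM.

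Kinases and adaptors connect the receptors to IκB. Of 14 kinases and subunits of kinase complexes 2 were higher past 2-fold with 4HC, against 4.24% of all genes. IKBKE was at 2.74-fold and RIPK2, which relays signals of NOD receptors, at 2.45-fold. The median log2 fold of the 14 was 0.16, against -0.02 for all genes. IRAK1, the most abundant of the 14, was at 21.8 FPKM in 4HC with antibody, 22.9 FPKM in 4HC, 22.8 FPKM in IFNβ and 26.9 FPKM in control cells. Of 17 adaptors and ubiquitin ligases 2 passed 2-fold with 4HC, against the same 4.24%. TRAF1, an adaptor that binds cIAP2, was at 3.53, 3.93, 0.478 and 0.483 FPKM in 4HC with antibody, 4HC, IFNβ and control cells. TRAF5 was at 2.01-fold for 4HC over control. TRAF1 was below 0.5 FPKM in IFNβ and control cells and entered the set only through the 4HC groups. The count of adaptors and ligases is therefore a description. RBCK1, a subunit of the linear ubiquitin ligase, was at 13.5, 14.1, 17.7 and 15.9 FPKM.

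Of 14 further IκB proteins and brakes 2 were higher past 2-fold with 4HC, against 4.24% of all genes, and none was lower, against 0.362%. BCL3, an atypical nuclear IκB protein, was at 3.20, 3.83, 1.37 and 0.942 FPKM in 4HC with antibody, 4HC, IFNβ and control cells, a fold of 3.77 for 4HC over control. TNIP1, a partner of A20, was at 11.2, 14.0, 4.45 and 5.28 FPKM, a fold of 2.62. TAX1BP1, another A20 partner, was at 41.8, 42.2, 38.6 and 36.2 FPKM.

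Known NF-κB target genes were also counted. Of 18 in the comparison set, 12 were higher past 2-fold in 4HC with antibody and 12 in 4HC alone, each over control, compared with 3 in IFNβ cells (CCL2, CXCL10 and IRF1). The shares of all genes past 2-fold in these comparisons were 3.72% in 4HC with antibody, 4.24% in 4HC and 1.97% in IFNβ cells. CSF2, at 0.00492 FPKM in control cells, and SAA3 were in the set only through the 4HC groups, so the count is a description. The median log2 folds over control were 1.23 in 4HC with antibody, 1.63 in 4HC and 0.04 in IFNβ cells. CXCL10, a T cell chemokine that interferon also induces, was at 18.5, 28.6, 11.2 and 1.04 FPKM in 4HC with antibody, 4HC, IFNβ and control cells. SAA3, an acute phase protein, was at 10.97, 9.99, 0.227 and 0.391 FPKM. The most abundant target, IER3, was at 88.1, 81.3, 43.4 and 45.3 FPKM, short of 2-fold for 4HC over control. For scale, ISG15, an interferon-stimulated gene, was at 19.4, 117.6, 171.7 and 5.11 FPKM, and EEF1A1, a housekeeping translation factor, at 2721, 2318, 2783 and 2560 FPKM.

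The genes whose pattern was most like that of NFKBIE were sought by the Euclidean distance over the 3 log2 folds against control. The search covered 9258 other genes with a mean above 1 FPKM. Symbols of the Gm, Rik, LOC, Mir and Snor types and those opening with a digit were left out. TRAF1 was nearest at 0.27, followed by GDF15 at 0.45, C3 at 0.51, HMOX1 at 0.57 and DDIT3 at 0.61. GDF15 encodes a stress-responsive cytokine and was at 24.99, 29.5, 4.34 and 3.55 FPKM in 4HC with antibody, 4HC, IFNβ and control cells. C3 is the central complement component, HMOX1 the heme-degrading enzyme of the oxidative stress response and DDIT3 a transcription factor of the endoplasmic reticulum stress response. These 5 were chosen by their folds, so their likeness to NFKBIE is a description only.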

How the data were processed

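Polyadenylated RNA of 12 E0771 libraries, 3 per group, was sequenced after strand-specific library preparation. According to the submitters' processing notes, TopHat2, featureCounts and edgeR were used with genome build mm9, and their versions are not given in the sources used here. The authors deposited 1 table with the mean FPKM of each group and, for each comparison, a ratio, a fold change and an adjusted p-value. The columns of ratios, fold changes and p-values were not used, and depth per library is unknown from the table.

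Group means were read as deposited. Folds were computed as log2 of the ratio after adding 0.1 FPKM, over 10765 genes with a mean over the 4 groups above 0.5 FPKM, and 2-fold was the threshold. No test was run, because means carry no replicate values. The arithmetic was checked on copies of the control values with known folds built into genes above 1 FPKM. Those copies had no spread between libraries, so the check does not bear on spread or on low genes. All 10 genes are named. From each pathway list the 2 genes of largest 4HC fold and the most abundant were named, from the interferon and housekeeping lists the most abundant, and the 5 genes nearest to the NF-κB gene of largest fold. Other list members were counted only, except the 3 target genes past 2-fold with IFNβ, CSF2, TLR3 and some markers. The markers were KRT8, EPCAM, CDH1, VIM, FN1, CDH2, DCN, LYZ2, CD3E and NCR1. All of these exceptions were singled out after their values were seen. The members and lists were chosen with earlier results of these data known. Of 172 listed genes 171 matched a symbol. Promoters came from RefSeq (GRCm38.p6) and were matched by symbol. Python 3.11.15, pandas 2.3.3, numpy 2.4.6 and matplotlib 3.10.9 were used. The alternatives tried were other pseudocounts, filters, fold thresholds and scalings.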

Additional observations from a re-analysis of the deposited data

How the results depend on the processing

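No paired analysis was possible because the deposited table holds group means, and leaving out single libraries was not run for the same reason. With 1 FPKM added, 254 genes were higher and 14 lower in 4HC over control, 148 higher and 8 lower in 4HC with antibody over control (3 of the 10 NF-κB genes higher), 6 lower with IFNβ and 3 higher in 4HC with antibody over 4HC. Without a filter the counts were 931 and 85, 889 and 94, 94 lower with IFNβ, and 121 higher and 252 lower in 4HC with antibody over 4HC. With a mean above 1 FPKM, 12 were lower with IFNβ and 18 higher in 4HC with antibody over 4HC. At 1.5-fold the counts were 1004 higher and 304 lower with 4HC (8 of the 10 higher), 982 and 375 when antibody was added, 352 and 120 for IFNβ, and 153 and 243 in 4HC with antibody over 4HC. With one FPKM total for all groups, 64 genes were lower in 4HC with antibody over control and the median share of the 4HC difference left was 57.5% (52.6% for TNFAIP3 to 84.1% for NFKBIA). Of 272 values for single genes, 263 stayed on their side of the threshold and 9 crossed it. The 272 include values under changed filters, which leave the fold of a gene as it was and so could not cross. TNFAIP3 with IFNβ alone changed sign, to a log2 fold of 0.02 after centering on expressed genes. The spread between libraries is unknown, and among the 10 genes the log2 fold for 4HC over control moved most with 1 FPKM added for NFKBIE (2.00 instead of 3.00), TNFAIP3 (1.26 instead of 2.16) and BIRC3 (0.91 instead of 1.77).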
